A study of Homo sapiens with 3 samples.

Results

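The 10 genes described here are transcription factors and stress effectors of the ATF4 and CHOP arm of the unfolded protein response: ATF4, DDIT3 (the gene of CHOP), ATF3, CEBPB, CEBPG, TRIB3, PPP1R15A, CHAC1, TNFRSF10B and VLDLR. They were chosen by name, and all 10 were found among the 58243 genes of each library's table. RNA-seq had been made from human cells labelled LoVo, a colorectal carcinoma line, that carry a Tet-On short hairpin RNA against HRD1. HRD1, encoded by SYVN1, is the ubiquitin ligase that marks misfolded proteins of the endoplasmic reticulum (ER) for destruction, and the study asked how ER stress after its loss alters gene expression. The 3 libraries came from cells given doxycycline at 1 µg/ml for 0, 3 or 5 days. All of them carried the hairpin, and the day 0 cells had no doxycycline. There was 1 library per time, so no spread between cultures could be measured, and nothing in the labels says whether the line is 1 clone. No library with a control hairpin, or with doxycycline and no hairpin, was analysed here, so knockdown, doxycycline and time in culture cannot be told apart.

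When unfolded proteins collect in the ER, the kinase PERK phosphorylates the translation factor eIF2, which slows most protein synthesis but raises translation of ATF4 mRNA. ATF4 then switches on genes for amino acid supply and redox control, together with further transcription factors such as CHOP and ATF3. Longer stress adds genes that end the response, such as PPP1R15A, and genes tied to cell death, such as TNFRSF10B. In colon carcinoma lines, as in other cells, this arm is known both for adaptation to stress and for cell death when stress lasts.

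ATF4 binds DNA as a dimer with C/EBP proteins at composite sites, so the start regions of the genes were searched for short motifs. RefSeq promoter windows on GRCh38.p14, running from 250 bases before to 50 bases after each start, were present for 9 of the 10 genes. Both strands were searched. The core of the C/EBP-ATF response element, TGATGNAA (TTNCATCA on the other strand), lay in 3 of the 9 genes and in 4.46% of 27305 genes with windows of the same length. The cAMP response element, TGACGTCA, which reads the same on both strands, lay in 1 of the 9 genes and in 2.25% of all genes. The core of the unfolded protein response element, TGACGTGG (CCACGTCA on the other strand), lay in 0 of the 9 genes and in 0.927% of all genes. The cAMP response element and the last core differ only in their final letters, so 1 site cannot match both. The 9 genes had 16 windows and the 27305 genes had 35116, so the 9 had more windows per gene. TNFRSF10B, the gene without a window, was also the only one of the 10 not counted as higher at day 3. Every gene searched was thus counted as higher, and the matches cannot be set against the ratios. The 4 sites found are printed, each with 11 bases on both sides, and the capitals mark the match.
ATF3: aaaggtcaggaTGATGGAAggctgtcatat
CEBPG: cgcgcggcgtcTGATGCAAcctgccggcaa
CHAC1: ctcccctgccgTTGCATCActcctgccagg
PPP1R15A: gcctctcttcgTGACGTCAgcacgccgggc
All 4 are on the plus strand of GRCh38.p14. The ATF3 site is at chr1:212565205-212565234, and its match begins 191 bases before a RefSeq start. The CEBPG site is at chr19:33374060-33374089, 42 bases before a start. It lies inside the span of CEBPG, which begins at 33373330, and its match is in no exon of the gene. The CHAC1 site is at chr15:40953251-40953280, 209 bases before a start, inside an exon of a CHAC1 transcript that starts further upstream. The PPP1R15A site, the only cAMP response element, is at chr19:48872352-48872381, 58 bases before a start. These matches describe letters in a window, not bound sites.

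The libraries held 21308785, 22068686 and 25754188 total gene reads at days 0, 3 and 5, of which 87.6% to 89.2% were uniquely placed. SYVN1, the hairpin's target, fell to 0.543-fold at day 3 and 0.482-fold at day 5 (1212, 650 and 709 reads). Of 12 colorectal epithelial markers, the keratin genes KRT8, KRT18 and KRT19 were at 1 TPM (a level scaled to gene length and library depth) or more in each library, while EPCAM stayed at 0.656 to 0.742 TPM, CDH1 at 0.241 TPM or less and CDX2 at 0 reads. Of 10 mesenchymal markers 7 were at 1 TPM or more in every library, with VIM at 4016 TPM at day 0. KRT20, the intestinal keratin gene of the list, had 3, 4 and 8 reads. Of the labelled colon epithelial identity, the markers checked therefore showed only keratins of simple epithelia. The markers thus do not bear out the label, and the identity of the cells was not tested. Hepatocyte markers at 1 TPM or more numbered 1, 1 and 7 of 9 (ALB had 0, 0 and 114 reads, and SERPINA1 made up most of the summed 665 to 799 TPM), and blood markers 0, 1 and 5 of 8, with sums of 0.569, 3.20 and 15.1 TPM. More of these markers were present at day 5, and their part in any day 5 value below was not tested. In a bulk library, fewer cells with a transcript and less of it per cell cannot be told apart.

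ATF4 had by far the most transcript per length of the 10 genes, with 448, 531 and 529 TPM at days 0, 3 and 5. PPP1R15A followed with 176, 208 and 206 TPM, and CEBPB with 155, 187 and 154 TPM. A middle group comprised TNFRSF10B with 108, 101 and 110 TPM, TRIB3 with 70.7, 94.04 and 79.3 TPM, DDIT3 with 69.6, 101 and 89.9 TPM and CEBPG with 41.1, 47.3 and 50.7 TPM. The lowest levels were those of CHAC1 (21.3, 32.6 and 25.8 TPM), ATF3 (8.32, 11.6 and 11.4 TPM) and VLDLR (5.75, 8.56 and 7.97 TPM). The first 3 and the last 4 ranks were the same in each library. Within the middle group the order changed, since DDIT3 stood below TRIB3 at day 0 and above it at days 3 and 5. Neighbours that did not differ beyond counting error were TRIB3 and DDIT3 at day 0 (ratio interval 0.907 to 1.14) and DDIT3 and TNFRSF10B at day 3 (0.920 to 1.09). Scaled to its uniquely placed reads alone, DDIT3 stood at 43.2, 52.2 and 42.6 TPM, close to CEBPG.

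From day 0 to day 3, 9 of the 10 genes rose by the rule used, and TNFRSF10B did not. A gene was counted where the larger of both normalised read numbers exceeded the smaller by at least 25% and the 95% interval of the ratio excluded 1. In the direction of higher reads at day 3 this rule was met by 6.27% of the 12593 genes that averaged 50 reads or more. All 10 genes passed that minimum. The median log2 ratio of the 10 was 0.46, against 0.01 over all genes compared, and 0 of the 10 were lower, against 8.08% of all genes. At 1.5-fold or more, DDIT3, CHAC1 and VLDLR were counted, 3 of 10 against 1.29% of all genes. In the other direction 0 of 10 were counted, against 2.53%. On uniquely placed reads DDIT3 was at 1.36-fold and did not reach 1.5-fold, while CHAC1 and VLDLR did. With uniquely placed reads alone 8 of the 10 were counted, because CEBPG fell just short at 1.249-fold. The share of all genes compared on these reads was 6.20%. The differences were small, with log2 ratios of 0.32 to 0.68 among the 9. The intervals cover counting error only, not variation between cultures.

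**Figure D1:**
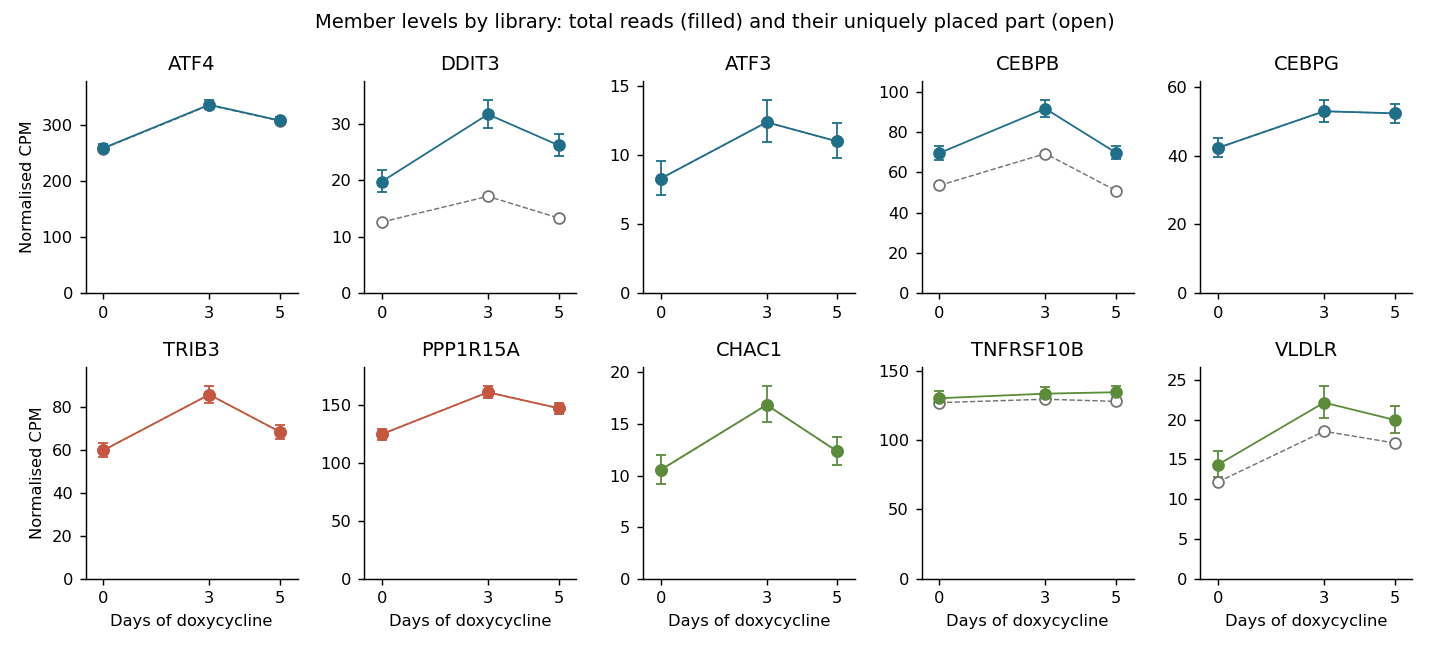
Normalised CPM (reads scaled to the effective library size) of each gene against days of doxycycline, with 95% exact Poisson intervals; filled points are total reads and open points their uniquely placed part. Blue marks transcription factors, red feedback proteins and green effectors. Levels of 9 genes are highest at day 3, although the order of days 3 and 5 changes with scaling for ATF4, CEBPG and PPP1R15A, while TNFRSF10B stays between 130 and 134 CPM.

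The day 3 count depended on scaling. With the authors' TPM, and likewise after smooth trends of the ratios with GC content and exon length had been removed, 5 of the 10 were counted, and DDIT3, ATF3, TRIB3, CHAC1 and VLDLR were the 5 in both. The shares of all genes counted as higher were then 2.60% and 5.10%. With library totals 6 of the 10 were counted, against 3.33% of all genes. On exon-exon reads 7 of the 9 genes with such reads were counted, against 5.98% of all genes compared on them. The log2 ratios of ATF4, CEBPB, CEBPG and PPP1R15A were 0.25, 0.26, 0.20 and 0.23 with the TPM values, all above 0 but under the threshold.

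ATF4, the bZIP transcription factor at the head of this arm, lies on chromosome 22 (39519695 to 39522685, plus strand, GRCh38). It had 5593, 7184 and 8091 total reads at days 0, 3 and 5, of which 5573, 7162 and 8068 were uniquely placed. Normalised for depth these were 259, 336 and 308 CPM, lowest at day 0 and highest at day 3. ATF4 mRNA rose 1.30-fold at day 3 (log2 ratio 0.38, 95% interval 0.33 to 0.43), a ratio higher than that of 95.3% of all genes compared. At day 5 it stood at 1.19-fold over day 0 (log2 0.25, 0.20 to 0.30), under the threshold although the interval excluded 1. ATF4 has 4 named pseudogenes, ATF4P1 to ATF4P4, and each had 0 reads in all 3 libraries.

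Reads that span an exon-exon junction come from spliced transcripts. ATF4 had 2886, 3833 and 4507 of them, and their share of exon reads was 51.9%, 53.6% and 56.0%. Over all genes, junction reads made up 60.7%, 61.8% and 57.7% of total gene reads. Ratios on junction reads are scaled to each library's junction reads. On junction reads ATF4 was 0.39 higher at day 3 and 0.44 higher at day 5 on the log2 scale (interval 0.37 to 0.51), so the day 5 value did not lie below the day 3 value as it did for total reads. With length and GC trends removed, day 5 over day 3 was likewise 0.05 for ATF4. The direction of ATF4 between days 3 and 5 thus depended on which reads and which scaling were used.

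DDIT3 encodes CHOP, the C/EBP-related factor linked to death after prolonged ER stress. The gene lies on chromosome 12 (57516588 to 57520517 in the deposited tables, minus strand). Its total reads numbered 427, 676 and 687, and its uniquely placed reads 272, 366 and 349. The uniquely placed share was 63.7% at day 0, 54.1% at day 3 and 50.8% at day 5, so it was highest in the untreated library. In total reads DDIT3 stood at 19.8, 31.7 and 26.2 CPM and rose 1.60-fold at day 3 (log2 0.68, 0.50 to 0.86) and 1.32-fold at day 5 (log2 0.40, 0.23 to 0.58). In uniquely placed reads it rose 1.36-fold at day 3 (log2 0.44, 0.21 to 0.67) and was 1.07-fold of day 0 at day 5 (log2 0.09, -0.14 to 0.33). The day 3 rise was therefore seen in both kinds of read, whereas at day 5 total and exon reads passed the threshold and uniquely placed and junction reads did not.

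The DDIT3 reads that were not uniquely placed numbered 155, 310 and 338, and they were 2.02-fold higher at day 3 (interval 1.66 to 2.47) and 1.80-fold higher at day 5 (1.48 to 2.19). Junction reads of DDIT3, nearly all uniquely placed, numbered 246, 313 and 276. Their log2 ratio was 0.32 at day 3 (0.08 to 0.57) and -0.04 at day 5 (-0.29 to 0.22). Junction reads made up 60.7%, 49.1% and 43.1% of DDIT3's exon reads, a smaller share at each later time. Over all genes, their share of total gene reads was 60.7%, 61.8% and 57.7%, lowest at day 5. Intron reads of DDIT3 were 22, 38 and 46.

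DDIT3 shares sequence with a neighbour on the other strand. The span of MARS, the gene of cytosolic methionyl-tRNA synthetase (chromosome 12, 57475445 to 57517569, plus strand), overlaps that of DDIT3 by 982 bases, and the exons of both share 355 bases, 27.2% of DDIT3's exon bases in GENCODE 29. MARS had 6227, 7523 and 7821 reads, with log2 ratios of 0.29 at day 3 and 0.05 at day 5, and 8 to 19 of its reads per library were not uniquely placed. Nothing in the labels says that counting used strand, and without it reads from the shared stretch cannot be told apart. The source of DDIT3's reads that were not uniquely placed was not tested. On the side where this minus-strand gene starts, the deposited DDIT3 model reaches 57520517 and the GENCODE 29 one 57521737. The other boundary, 57516588, on the side of MARS, is the same in both. The models also differ in exon length (1178 against 1307 bases).

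**Figure D2:**
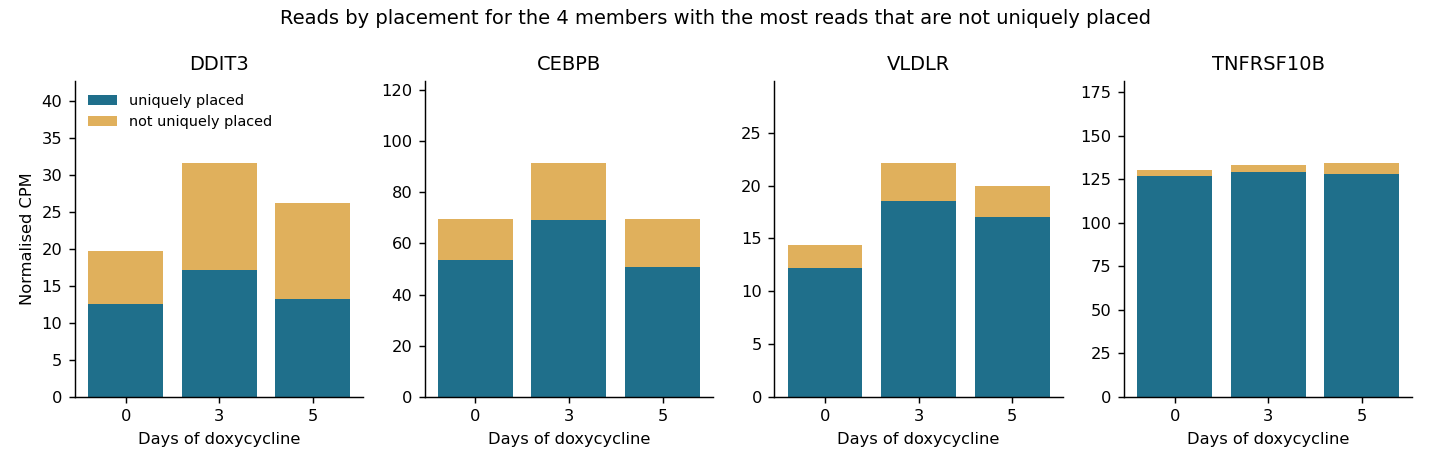
Normalised CPM by day for DDIT3, CEBPB, VLDLR and TNFRSF10B, the genes with the most reads that are not uniquely placed; stacked bars separate uniquely placed (blue) from other reads (yellow). Between days 0 and 5 the uniquely placed share falls from 63.7% to 50.8% in DDIT3, from 76.9% to 73.0% in CEBPB and from 97.6% to 95.1% in TNFRSF10B. In VLDLR it is 84.8% and 85.5%, and over all gene reads 89.2% and 87.6%.

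ATF3, a stress-induced bZIP factor and a known target of ATF4, lies on chromosome 1 (212565334 to 212620777, plus strand). It had 179, 264 and 288 reads, all uniquely placed, or 8.28, 12.4 and 10.97 CPM. Both doxycycline libraries lay above the day 0 library. ATF3 rose 1.49-fold at day 3 (log2 0.58, 0.30 to 0.86) and 1.32-fold at day 5 (log2 0.40, 0.13 to 0.68). Its junction reads, 55, 92 and 93, were higher at day 3 and day 5 by 0.71 and 0.55 on the log2 scale. Unlike DDIT3, ATF3 was thus counted as higher at both times in total, uniquely placed and junction reads.

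CEBPB, a C/EBP factor that can dimerise with ATF4 and CHOP, is a gene of 1 exon on chromosome 20 (50190734 to 50192689, plus strand), so it has no junction reads. Total reads were 1501, 1954 and 1828, with 1154, 1478 and 1334 of them uniquely placed. These gave 69.5, 91.5 and 69.6 CPM, high at day 3 with days 0 and 5 at nearly the same level. CEBPB rose 1.32-fold at day 3 (log2 0.40, 0.30 to 0.50) and was back at a log2 ratio of 0.00 (-0.10 to 0.10) at day 5. The antisense gene CEBPB-AS1, which shares 231 exon bases with it, had only 48 to 53 reads per library.

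CEBPG, a C/EBP protein without a transactivation domain that pairs with ATF4, lies on chromosome 19 (33373330 to 33382686, plus strand). It had 914, 1131 and 1374 reads, all uniquely placed, or 42.3, 53.0 and 52.3 CPM. Days 3 and 5 were level with each other. The log2 ratio was 0.32 at day 3 (0.20 to 0.45) and 0.31 at day 5 (0.19 to 0.43), on either side of the threshold, so the pair of calls marks no difference between the times.

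The feedback genes are those whose proteins act back on the pathway. TRIB3, a pseudokinase that binds ATF4 and CHOP and holds their activity down, lies on chromosome 20 (362835 to 397559, plus strand). Its reads, all uniquely placed, were 1292, 1832 and 1796, or 59.8, 85.8 and 68.4 CPM. TRIB3 rose 1.43-fold at day 3 (log2 0.52, 0.42 to 0.62) and stood at 1.14-fold at day 5 (log2 0.19, 0.09 to 0.30). Day 5 lay between day 0 and day 3.

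PPP1R15A (GADD34) brings protein phosphatase 1 to phosphorylated eIF2 and so restores translation. The gene lies on chromosome 19 (48872392 to 48876057, plus strand) and had 2704, 3446 and 3873 reads, all uniquely placed, or 125, 161 and 148 CPM. It rose 1.29-fold at day 3 (log2 0.37, 0.29 to 0.44), and day 5 was 1.18-fold of day 0 (log2 0.24, 0.17 to 0.31). PPP1R15A and ATF4 thus had nearly the same ratios at both times.

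CHAC1, a gamma-glutamylcyclotransferase that breaks down glutathione, lies on chromosome 15 (40952962 to 40956519, plus strand). It had 228, 360 and 324 reads, all uniquely placed, or 10.6, 16.9 and 12.3 CPM. The day 3 library stood above the other libraries. CHAC1 rose 1.60-fold at day 3 (log2 0.67, 0.43 to 0.92), and at day 5 its log2 ratio of 0.23 had an interval that included 0 (-0.02 to 0.48). Its junction reads were 56, 118 and 66, which is 2.07-fold at day 3 and a log2 ratio of 0.03 at day 5. The intron reads of CHAC1 were few in each library (12, 1 and 3).

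TNFRSF10B encodes DR5, the death receptor for TRAIL that CHOP is known to induce. The gene lies on chromosome 8 (23020133 to 23069179, minus strand) and had 2811, 2849 and 3529 total reads, 2743, 2763 and 3356 of them uniquely placed. At 130, 133 and 134 CPM the 3 libraries were level. The log2 ratio was 0.04 at day 3 (-0.04 to 0.11) and 0.05 at day 5 (-0.02 to 0.12). The upper bounds of both intervals, 0.12 or less on the log2 scale, lie under the 25% threshold. Among all genes compared, 54.6% had a lower ratio than TNFRSF10B at day 3, so it lay near the middle. With the authors' TPM its day 3 ratio was -0.09, and with junction reads -0.07.

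VLDLR, a lipoprotein receptor and a known target of ATF4, lies on chromosome 9 (2621834 to 2660053, plus strand). Its total reads numbered 310, 473 and 524, and its uniquely placed reads 263, 396 and 448. Normalised total reads were 14.3, 22.1 and 19.96 CPM, with both later libraries above day 0. VLDLR rose 1.54-fold at day 3 (log2 0.63, 0.42 to 0.84) and 1.39-fold at day 5 (log2 0.48, 0.27 to 0.68). Uniquely placed reads gave 0.60 and 0.50. The antisense gene VLDLR-AS1 shares 738 exon bases with VLDLR, 7.90% of its exon length, and had 46, 49 and 74 reads.

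**Figure D3:**
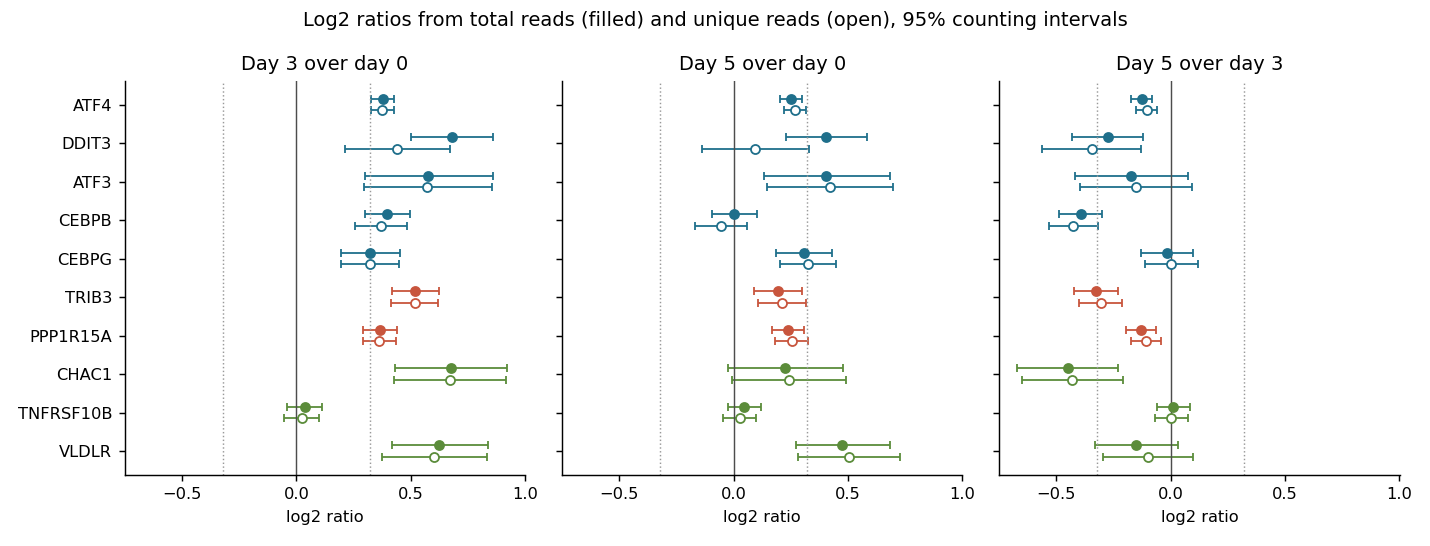
Log2 ratios of the 10 genes in the 3 comparisons, with 95% counting intervals; filled points are total reads, open points uniquely placed reads, dotted lines the 25% threshold in each direction. DDIT3 is the gene whose total and unique values lie furthest apart (0.40 and 0.09 for day 5 over day 0).

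At day 5, DDIT3, ATF3 and VLDLR were counted as higher than at day 0, 3 of 10 against 6.54% of all genes compared. None of the 10 was counted as lower, against 5.17% of all genes. The median log2 ratio of the 10 was 0.24, against 0.01 over all genes. With uniquely placed reads the 3 genes were ATF3, CEBPG and VLDLR, because DDIT3 dropped out and CEBPG reached 1.252-fold. The share of all genes compared on these reads was 6.03%. At 1.5-fold 0 of the 10 were counted at day 5, against 1.75% of all genes higher and 1.28% lower. The day 3 and day 5 ratios share the day 0 library, so they are given side by side and not as independent results.

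Between day 3 and day 5, CEBPB, TRIB3 and CHAC1 fell, 3 of 10 against 6.94% of all genes compared, and 0 of the 10 rose, against 8.99%. CEBPB fell to 0.761-fold (log2 -0.39, -0.49 to -0.30), TRIB3 to 0.798-fold (log2 -0.33, -0.42 to -0.23) and CHAC1 to 0.732-fold (log2 -0.45, -0.67 to -0.23). For DDIT3 the log2 ratio was -0.27 in total reads, under the threshold, and -0.35 in uniquely placed reads, past it, while TRIB3 at -0.31 fell just short on the scaling of uniquely placed reads. TNFRSF10B was the only one of the 10 above 0 in total reads, at 0.01, and the median of the 10 was -0.16 against 0.00 over all genes. This comparison uses the same day 3 library as the day 3 count and is not independent of it. At 1.5-fold 0 of the 10 were counted, against 2.28% of all genes higher and 0.969% lower. The count also depended on scaling. With length and GC trends removed 0 of the 10 were counted as lower, and with library totals or the authors' TPM 1 was, CHAC1 in both cases. The shares of all genes counted as lower were then 3.44%, 3.53% and 2.93%.

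**Figure D4:**
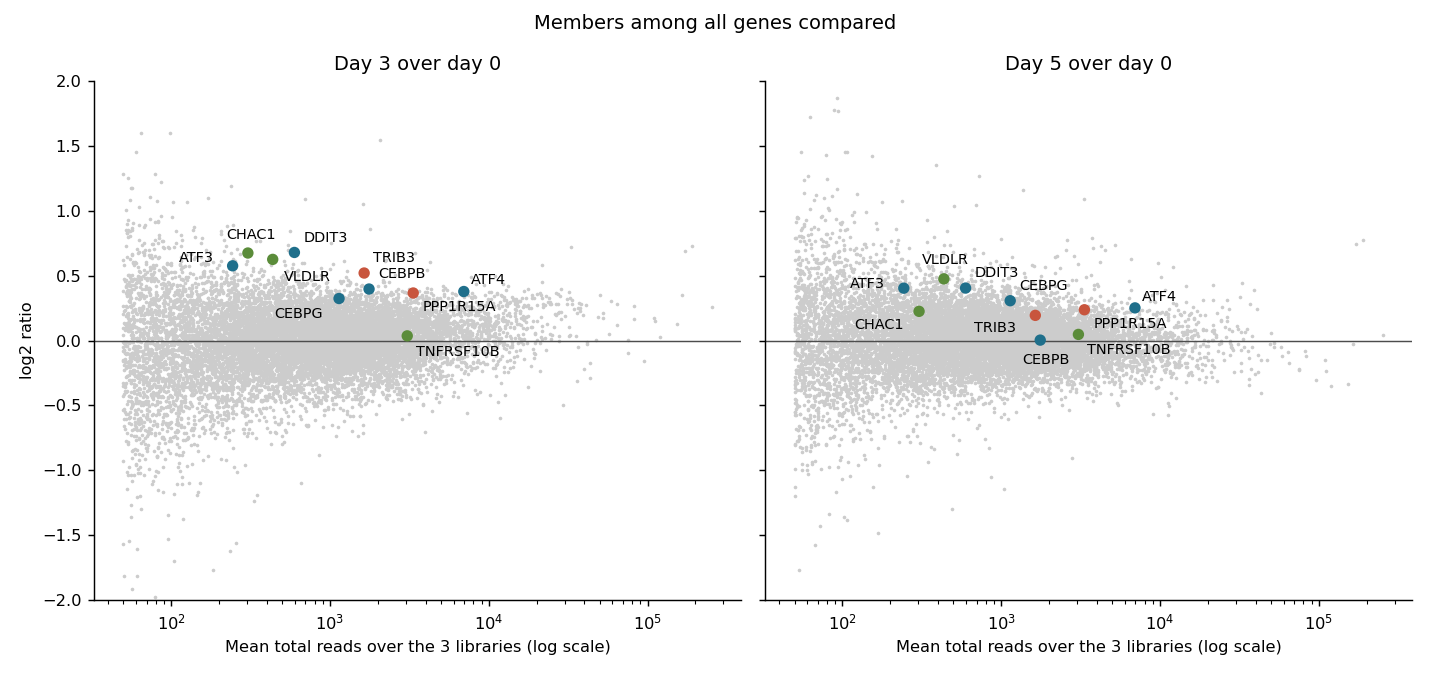
Log2 ratio against mean total reads (log scale) for the 12593 genes compared (grey) with the 10 genes marked (blue transcription factors, red feedback proteins, green effectors). At day 3, 9 of the 10 lie between 0.32 and 0.68 and TNFRSF10B at 0.04; 13 genes at day 3 and 17 at day 5 lie outside the axis range of -2 to 2.

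Other genes of the pathway were described from 6 lists of known members, by counts and medians beside the shares of all genes given above. The 9 genes upstream of ATF4 (eIF2 kinases, an eIF2 subunit and phosphatase 1 subunits) had a median log2 ratio of 0.03 at day 3 and 0.15 at day 5, and 0 of 9 were counted in either direction at either time. Of all genes compared, 6.27% were higher and 8.08% lower at day 3, and 6.54% and 5.17% at day 5. PERK's own gene, EIF2AK3, had log2 ratios of 0.08 and 0.15. At day 3 the highest were the catalytic phosphatase subunits PPP1CA (0.16), PPP1CC (0.13) and PPP1CB (0.08), and the lowest PPP1R15B (-0.11), the constitutive relative of PPP1R15A, and EIF2AK2 (-0.08). At day 5 PPP1CB (0.23), PPP1R15B (0.17) and EIF2S1 (0.16) were highest, and EIF2AK1 (-0.04) and EIF2AK4 (-0.03) lowest. Only 7.83% of the reads of PPP1R15B and 38.0% of those of PPP1CB were uniquely placed, so their values are uncertain. In uniquely placed reads PPP1R15B was counted as lower at both times (-0.34 at day 3 and -0.37 at day 5), and PPP1CB stood at -0.13 and 0.01. PPP1R15B was the only one of the 9 to be counted. On these reads 7.72% of all genes compared were lower at day 3 and 5.42% at day 5.

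Of 35 other known ATF4 targets, 30 passed the read minimum, and at day 3 17 of them rose and 0 fell (median 0.34). The shares of all genes compared were 6.27% and 8.08%. No count of this list is given with library totals, the authors' TPM or trends removed. Each of these lowered the day 3 count of the 10 genes. The largest rises were those of DDIT4, an inhibitor of mTORC1 (log2 1.05), CTH, a cysteine-making enzyme (0.89), and ASNS, asparagine synthetase (0.86). Only 4.10% of ASNS reads and 60.3% of DDIT4 reads were uniquely placed, and uniquely placed reads gave 0.48, with an interval that included 1, and 0.99. Not all targets followed. The cystine transporter gene SLC7A11 stood at -0.30, with 32.5% of its reads uniquely placed, and fell in uniquely placed reads (-0.51), while the amino acid transporter gene SLC38A2 stood at -0.21. On uniquely placed reads the list had 15 genes higher and 1 lower at day 3, against 6.20% and 7.72% of all genes compared on them. At day 5, 7 of the 30 were counted as higher and 0 as lower (median 0.17), led by CTH (0.68), the sestrin gene SESN2 (0.57) and DDIT4 (0.57), with STC2 (-0.09) and SLC7A1 (-0.04) lowest. On uniquely placed reads 6 were higher, without ASNS, against 6.03% of all genes compared on them. In total reads the day 5 shares of all genes were 6.54% higher and 5.17% lower. Between days 3 and 5, SLC7A11 and SLC38A2 rose and ASNS, PHGDH, DDIT4, JDP2 and PYCR1 fell, 2 and 5 of the 30 (median -0.18). Over all genes compared 8.99% rose and 6.94% fell. The fall of ASNS was not seen in uniquely placed reads (-0.05). This list, like the 10 genes, had its higher median at day 3.

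Of 15 genes tied to CHOP or to death in ER stress, 2 rose at day 3 (median 0.09): TXNIP, a thioredoxin-binding protein (0.84), and DNAJB9, an ER co-chaperone (0.61). Of all genes compared, 6.27% rose at day 3 and 6.54% at day 5. BBC3 (0.35), a BH3-only death gene, was not counted because its interval included 1, and ITPR1 (-0.14) and DNAJC3 (-0.07) were lowest. At day 5 PMAIP1 (NOXA), another BH3-only gene, rose (0.39), DNAJB9 (0.31) and ERO1B (0.30) came next, and BBC3 (-0.15) and BCL2L1 (-0.09) were lowest (median 0.18).

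In the death receptor pathway, to which TNFRSF10B belongs, 0 of 10 measured genes rose at either time, and CASP10 fell at day 3 (-0.38). Of all genes compared, 6.27% rose and 8.08% fell at day 3, and 6.54% rose at day 5. The list medians were 0.00 at day 3 and 0.01 at day 5. CASP8 had the highest ratios (0.16 and 0.27), BID stood at 0.03 at day 3 and the decoy receptor gene TNFRSF10D at 0.14 at day 5. TNFRSF10C was the second lowest at both times (-0.31 and -0.09), and CASP10 stood at -0.24 at day 5. TNFSF10, which encodes TRAIL, had 3, 2 and 8 reads and was too low to compare.

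Among 26 measured partners and relatives of the transcription factors, 2 rose and 2 fell at day 3 (median 0.09). Over all genes compared 6.27% rose and 8.08% fell, so these counts were near the shares of all genes. The shares at day 5 were 6.54% and 5.17%. XBP1, the factor made by IRE1 splicing, rose (0.49), as did JDP2 (0.47), which is also on the list of ATF4 targets, while FOS (0.50) was not counted because its interval included 1. ATF7 (-0.45) and TEF (-0.37) fell at day 3, and both fell at day 5 (-0.36 and -0.53), but only 16.0% of ATF7 reads were uniquely placed, and those gave -0.12 at day 3 and -0.55 at day 5. At day 5 CEBPZ rose (0.34), with FOS (0.33) and CEBPD (0.26) next, and the list median was 0.08. CEBPZ shares the C/EBP name but is not a bZIP factor.

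Relatives and partners of TRIB3, CHAC1 and VLDLR had medians of -0.05 at both times. Of the 17 measured, 0 rose and 2 fell at day 3, the lipoprotein receptor genes LRP6 (-0.36) and LRP1 (-0.34). Over all genes compared 6.27% rose and 8.08% fell at day 3, and 6.54% and 5.17% at day 5. The highest at day 3 were COP1 (0.20), TRIB1 (0.19) and RELN (0.11). At day 5 RELN (0.83), the gene of the VLDLR ligand reelin, and CHAC2 (0.34) rose, TRIB1 stood at 0.26, and LRP5 (-0.54) and LRP1 (-0.45) fell. CHAC2, the paralog of CHAC1, stood at -0.10 at day 3, where CHAC1 stood at 0.67. Only 51.9% of CHAC2 reads were uniquely placed, and on those its day 5 ratio of 0.26 was under the threshold.

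**Figure D5:**
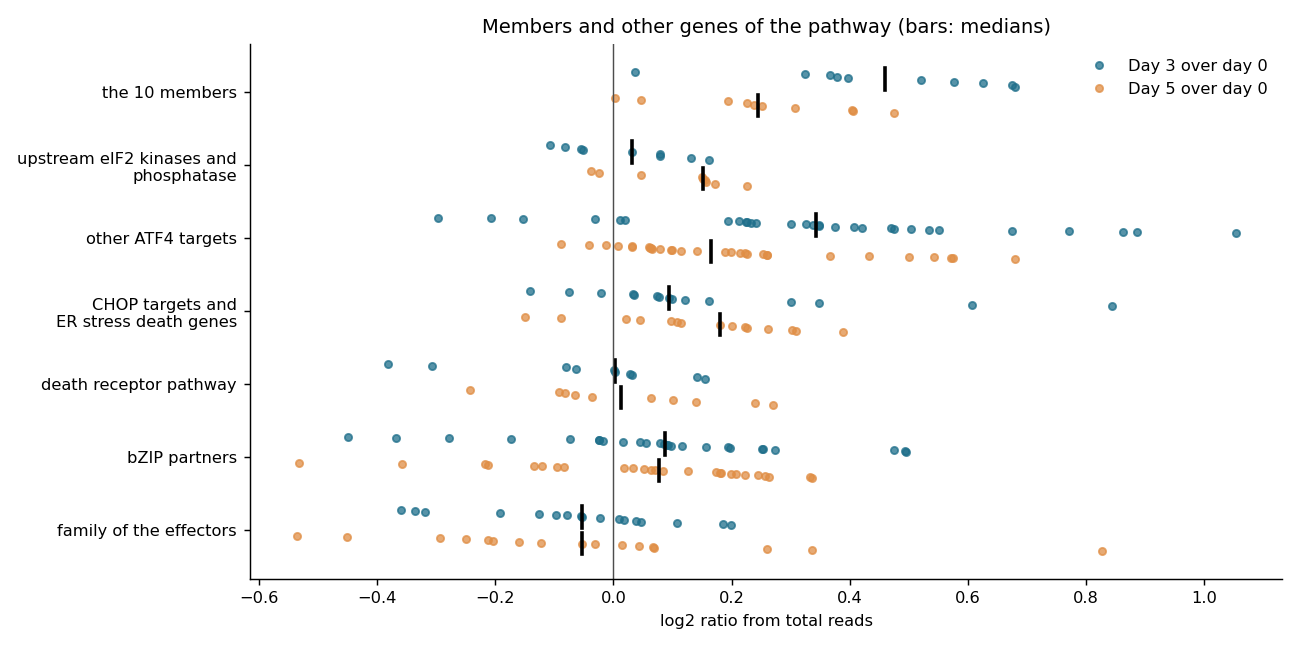
Log2 ratios from total reads for the 10 genes and the 6 lists of other pathway genes, day 3 over day 0 (blue) and day 5 over day 0 (orange), 1 point per gene, black bars for medians. The medians of the 10 genes (0.46 and 0.24) and of the other ATF4 targets (0.34 and 0.17) are higher at day 3, while the death receptor list has medians of 0.00 and 0.01.

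The genes whose pair of ratios (day 3 and day 5, each over day 0) was nearest to that of ATF4 were HCG11, SEC11A and GPANK1, at distances of 0.0118, 0.0125 and 0.0127 on the log2 scale. The search covered 7579 genes that averaged 200 reads or more, 90% or more of them uniquely placed, of which 168 lay within 0.1 of ATF4. For DDIT3, taken from uniquely placed reads, the nearest were NPRL2 (0.00861), TOR2A (0.0121) and CDK2AP2 (0.0140), and 70 of 7580 genes lay within 0.1. Likeness over 3 libraries describes these ratios and nothing more.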

How the data were processed

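The authors' deposited tables, 1 per library, hold gene read counts (unique and total, with exon, exon-exon and intron reads apart) and a TPM value, per the file headers. Libraries were made from total RNA with a SMARTer kit, per the labels' protocols. For the aligner and the counter, nothing is stated in the sources used here. The submitters' processing notes name mm10, a mouse build, but all 58243 identifiers are human Ensembl ones, and 56577 of the 57980 found in GENCODE 29 (97.6%) have the same start and end there, so coordinates are given as GRCh38. The 3 sample columns of a further table, covering the whole series, were left out.

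TMM factors (edgeR 4.0.16 under R 4.3.3) of 1.01, 0.968 and 1.02 scaled the total reads. A prior of 0.5 reads entered each ratio. Each 95% interval is the exact Clopper-Pearson interval of the ratio given the summed reads; with no molecular identifiers mentioned, they cover counting error only. With 1 library per time no test across samples was possible and no p-value is given. Intervals came from scipy 1.17.1 and lowess trends (span 0.3) from statsmodels 0.14.6 in Python 3.11.15. The steps were tested on simulated data.

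The 10 genes, the lists, the marker genes and the motifs were chosen with earlier results of these data known. Named genes were the 10, SYVN1, the 3 highest and 2 lowest of each list at day 3 and at day 5, the 3 nearest in pattern to ATF4 and to DDIT3, and overlapping genes or pseudogenes; some genes are not reported here. Other pathway genes with values (EIF2AK3, CHAC2 at day 3 and TNFSF10) were added after their values were seen. Alternatives were library totals, DESeq2 1.42.0 size factors, the authors' TPM plus 0.5, unique, exon and exon-exon reads, a prior count of 5, other read minimums (none, 10 and 200), leaving out mitochondrial and the 20 most abundant genes, removal of length and GC trends, and stricter call rules. Unique exon-exon reads, and a count over only those of the 10 genes whose reads were 90% or more uniquely placed, were added after seeing the data, as were the counts of the lists on unique reads.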

Additional observations from a re-analysis of the deposited data

How the results depend on the processing

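The count of 9 genes higher at day 3 became 5 with the authors' TPM and 5 with length and GC trends removed. It was 5 where the whole interval had to lie past the 25% threshold (ATF4, DDIT3, TRIB3, CHAC1 and VLDLR). At 1.5-fold it was 3, with DDIT3 among them on total but not on uniquely placed reads. With library totals it was 6, and on unique exon-exon reads 6 of 9. The count of 3 higher at day 5 over day 0 became 1 of the 7 genes with at least 90% uniquely placed reads, and 0 at 1.5-fold or under that interval rule. The count of 3 lower at day 5 over day 3 became 1 with library totals, 1 with the authors' TPM, and 0 with trends removed, at 1.5-fold or under the interval rule. The log2 ratio of DDIT3 for day 5 over day 0, 0.40 in total reads, was -0.037 on exon-exon reads and -0.029 on unique exon-exon reads. The causes of these shifts were not tested. With DESeq2 size factors, exon reads, a prior count of 5, or without mitochondrial and the 20 most abundant genes, the 30 log2 ratios of the 10 genes moved by less than counting error. The authors' TPM moved 10 of the 30 by more, trend removal 9, library totals 4 and unique reads 2. Of the 27 ratios on exon-exon reads 10 moved by more and 1 reversed, and on unique exon-exon reads 11 and 1. A reversal was counted only where the ratio met the rule on total reads. Ratios that did not meet it also changed sign on exon-exon reads. These were ATF4 for day 5 over day 3 (-0.13 to 0.05) and TNFRSF10B in each comparison. The authors' TPM moved the median of all genes to -0.08 at day 3. Depth limits ATF3, CHAC1 and VLDLR most, with 179 to 310 reads at day 0. No paired analysis was possible because each time has 1 library.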

Other observations

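ATF4 mRNA is known as a transcript whose reading frames ahead of the main start control its translation, so the leaders of the 10 genes were read from 1 GENCODE 29 transcript per gene, a choice made after the expression values were seen. At least 1 ATG ahead of the main start was found in 7 of the 10 genes, against 53.4% of 11357 protein-coding genes compared. ATF4 had 7 of them in a leader of 882 bases, CEBPG and TRIB3 had 3 each, DDIT3, PPP1R15A and TNFRSF10B had 2 each and ATF3 had 1, while CEBPB, CHAC1 and VLDLR had 0. The CHAC1 leader that was read had only 20 bases, against a median of 203 bases over the protein-coding genes compared. So short a leader leaves little room for an ATG. A frame that starts in the leader and overlaps the main start was found in ATF4, DDIT3 and ATF3, 3 of the 10, against 17.3% of the genes compared. In the ATF4 transcript that was read, 5 frames ended before the main start and 2 overlapped it. Other transcripts were not read, so these need not be the frames known to control ATF4 translation. RNA-seq reads do not measure how these frames are used, and no relation to the ratios above was tested.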
